A study of Mus musculus with 2 samples.

Results

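The genes described here encode 5 members of the CCN family of secreted matricellular proteins (Ccn1 to Ccn5), the transcriptional co-activators YAP and TAZ (Yap1 and Wwtr1), and 3 genes widely used as YAP target genes (Ankrd1, Amotl2 and Crim1). They were taken as the probe sets annotated to 1 of these genes alone, by current symbol or by the older names Cyr61, Ctgf, Nov, Wisp1 and Wisp2. The probe sets were not picked by their signal, but the genes were chosen with earlier results of these data known. All 10 genes had at least 1 such probe set, 20 in all, of 45101 probe sets on the array and of 18193 genes with a probe set of their own. The cultures compared were SVEC4-10, a mouse endothelial line derived from an axillary lymph node and grown in DMEM with 10% fetal calf serum, and MS-1, a mouse endothelial line derived from pancreatic microvessels and grown in DMEM with 5% fetal calf serum. Both lines are known to have been immortalised with the SV40 large T antigen. Both were grown for 3 to 5 days to confluence, used up to passage 5 and dissociated from the flask before the RNA was taken. Each line gave 1 sample and 1 Affymetrix array, so no difference has a replicate check, no p-value was computed, and line, serum and culture cannot be told apart.

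CCN proteins are built from modules that bind growth factors, integrins and matrix proteoglycans, and they modify how cells attach, migrate and respond to other signals. YAP and TAZ do not bind DNA themselves. When the Hippo kinases leave them unphosphorylated they enter the nucleus, join TEAD transcription factors and switch on genes such as Ccn1 and Ccn2, and they do so more in spread, stretched or sparse cells than in crowded ones. In endothelium the pathway is known for its part in vessel sprouting and in the response to flow. Much of its control acts on the proteins, which an array of RNA does not measure.

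Several values of the whole arrays bear on these genes. Background, the 95th percentile of 129 probe sets of odour, pheromone and taste receptors and of keratin-associated proteins of hair, lay at a signal of 17.6 for the SVEC4-10 array and 16.3 for the MS-1 array, and 12583 genes exceeded it on at least 1 array. A signal below background was raised to it, so a fold against it is written as "at least". The labels call both lines endothelial, yet 1 of 10 endothelial markers, Kdr, was above background in SVEC4-10 cells, with a summed signal of the list of 91.3, against 9 of 10 and a summed signal of 23306 in MS-1 cells. Pecam1, Cdh5, Tek, Tie1, Emcn, Nos3, Esam and Icam2 were below background in SVEC4-10 cells, and Cldn5 in both lines. Of 10 mesenchymal markers, 9 were above background in SVEC4-10 cells (summed signal 34368) and 2 in MS-1 cells (summed signal 146). Of 6 mesothelial markers 5 and 3 were (summed signals 14657 and 179). Among these 6, Krt19 went the other way, below background in SVEC4-10 cells and at 121 in MS-1 cells. Of 5 leukocyte markers with a probe set, 1 was above background in SVEC4-10 cells (summed signal 54.9) and 2 in MS-1 cells (summed signal 3721). Ptprc, Itgam and Cd3e were below background on both arrays, whereas Cd68, a lysosomal protein abundant in macrophages, read 45.9 in SVEC4-10 cells and 3645 in MS-1 cells. Of 4 epithelial markers 3 were above background in each line (summed signals 155 and 257), and Cdh1 in neither. Krt8 was 5.20-fold higher in SVEC4-10 cells, Krt18 was 8.21-fold higher in MS-1 cells and Epcam was within 1.13-fold. The part of these marker differences in the results that follow was not tested. Bacterial poly-A spike-in transcripts (21 probe sets above background) read 1.46-fold higher in SVEC4-10 cells, with log2 ratios of SVEC4-10 over MS-1 from 0.28 to 0.89. The hybridisation controls (18 probe sets) had a mean log2 ratio of -0.07. Scaling to the poly-A transcripts lowers every log2 ratio by 0.54 and the median of all genes to -0.52, against 0.02 as deposited.

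The CCN genes differed in both directions between the lines, whereas the RNA of YAP and TAZ themselves was less than 2-fold apart with every probe set as deposited. Ccn4 was 6.24-fold higher in SVEC4-10 cells, Ccn3 was at least 46.8-fold higher in MS-1 cells, and Ccn2 was within 1.30-fold. Of the target genes, Ankrd1 was 4.59-fold and Crim1 11.7-fold higher in MS-1 cells and Amotl2 was 2.00-fold higher in SVEC4-10 cells. At a threshold of 2-fold, 2 of the 10 genes were higher in SVEC4-10 cells (background 15.1% of all measured genes) and 4 in MS-1 cells (background 12.0%), and 4 lay between. At 4-fold the counts were 1 (background 5.6%) and 3 (background 4.2%). All 10 genes were measured, but Ccn5 was so through the SVEC4-10 array alone and the representative probe set of Ccn3 through the MS-1 array alone. In RNA from whole cultures, fewer cells that express a gene and less of its RNA per cell cannot be told apart. The median log2 ratio of the 10 genes (SVEC4-10 over MS-1 here and throughout) was -0.24, against 0.02 over all 12583 measured genes.

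The precision of a log2 ratio, called its error here, was taken from the disagreement between 2 probe sets of the same gene, as the standard deviation of their difference divided by the square root of 2. It was 0.60 over 6110 genes, and 0.41 over the 2037 genes whose mean signal was 259 or higher. For the 2037 dimmest genes, below a mean signal of 86.7, it was 0.81. Neither variation between cultures nor an error common to a whole array is part of it. Where a gene had several probe sets, it was represented by the brightest one, leaving aside the cross-hybridising class marked _x_at.

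**Figure D1:**
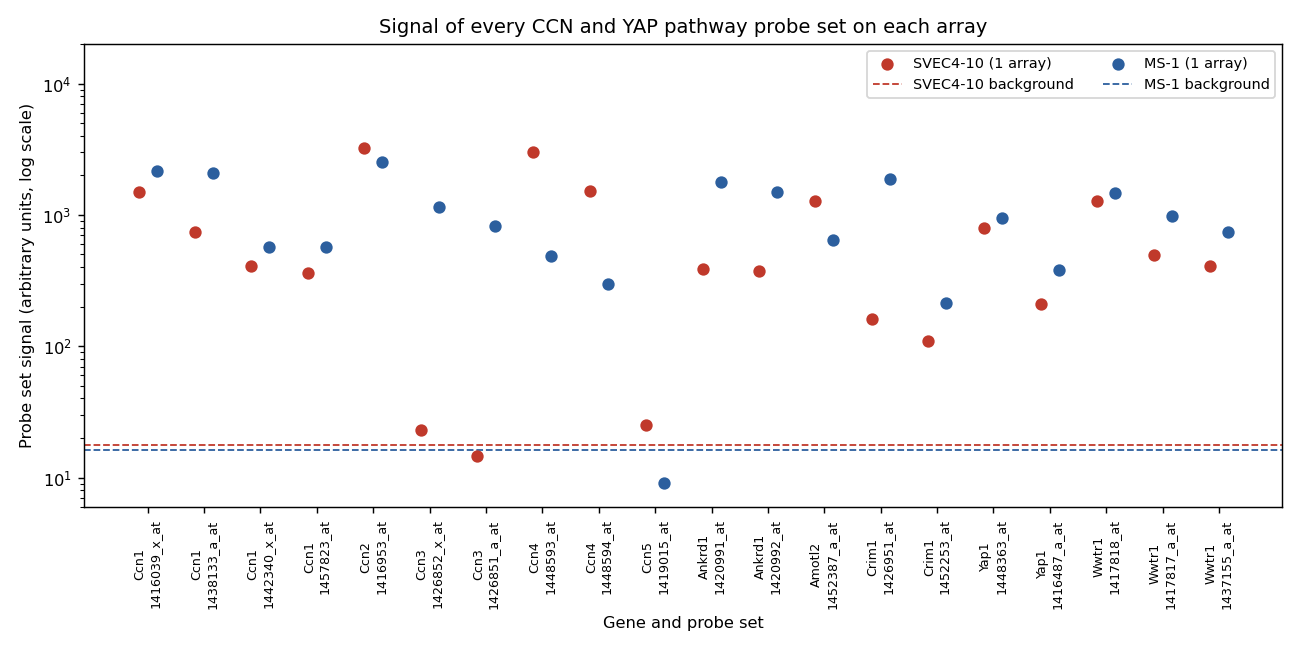
Signal of each of the 20 probe sets (log axis, arbitrary units) in SVEC4-10 cells (red) and the MS-1 array (blue), 1 array per line, with the background of each array as a dashed line. The SVEC4-10 points of Ccn3 lie at 14.6 and 23.1, close to background, and those of Ccn4 lie above their MS-1 points.

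Ccn3, which encodes the growth-restraining CCN protein long called NOV, had the largest difference among these genes. Probe set 1426851_a_at read 14.6 in SVEC4-10 cells, below background, and 824 in MS-1 cells. Its second probe set, 1426852_x_at, read 23.1 in SVEC4-10 cells and 1148 in MS-1 cells. The transcript was thus near the limit of detection in SVEC4-10 cells and well above it in MS-1 cells, with log2 ratios of -5.55 (a lower bound in size) and -5.63 that differed by less than the error of 0.60. Both probe sets are annotated to the same transcript accession, and 1 of them belongs to the cross-hybridising class.

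Ccn4, the WNT1-inducible member of the family known as WISP1, ran the other way. Its probe set 1448593_at read 3010 in SVEC4-10 cells and 482 in MS-1 cells, and 1448594_at read 1510 in SVEC4-10 cells and 300 in MS-1 cells. Both were far above background on each array, so the gene was expressed in both lines. The folds of 6.24 and 5.04 correspond to log2 ratios of 2.64 and 2.33, which differ by less than the error. Its rank from the SVEC4-10 end was 447 of 12583.

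Ccn2, connective tissue growth factor, is the most used reporter of YAP activity and a mediator of fibrosis. Its only probe set, 1416953_at, read 3256 in SVEC4-10 cells and 2514 in MS-1 cells. The log2 ratio of 0.37 is within the error of 0.41 for bright genes, and it turned to -0.17 under scaling to the poly-A controls, so no direction can be given. Ccn2 was therefore strongly detected in both lines at levels that 1 array each could not separate.

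Ccn1, an integrin-binding protein that is induced rapidly by serum and is known to be needed for vessel integrity in the mouse embryo, read lower in SVEC4-10 cells with each of its 4 probe sets, but by amounts that disagreed. The representative probe set, 1438133_a_at, read 737 in SVEC4-10 cells and 2096 in MS-1 cells, a 2.84-fold difference. The second, 1416039_x_at, read 1493 in SVEC4-10 cells and 2158 in MS-1 cells, a 1.44-fold difference. The remaining pair, 1442340_x_at and 1457823_at, read 409 and 364 in SVEC4-10 cells and 571 and 573 in MS-1 cells, which are 1.39-fold and 1.58-fold differences. The log2 ratios thus ran from -1.51 to -0.48, and 1 of the 4 probe sets passed 2-fold. With that probe set left aside for the brightest of any class, the log2 ratio of Ccn1 was -0.53 and the gene no longer counted among those 2-fold higher in MS-1 cells.

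Ccn5, known as WISP2, lacks the C-terminal module that the other CCN proteins carry. Its probe set 1419015_at read 25.0 in SVEC4-10 cells, a little above background, and 9.08 in MS-1 cells, below it. The difference of at least 1.54-fold did not reach 2-fold, although the log2 ratio was 1.46 without the background floor. The sixth member of the family, Ccn6, was below background on both arrays, with signals of 15.0 in SVEC4-10 cells and 10.9 in MS-1 cells.

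**Figure D2:**
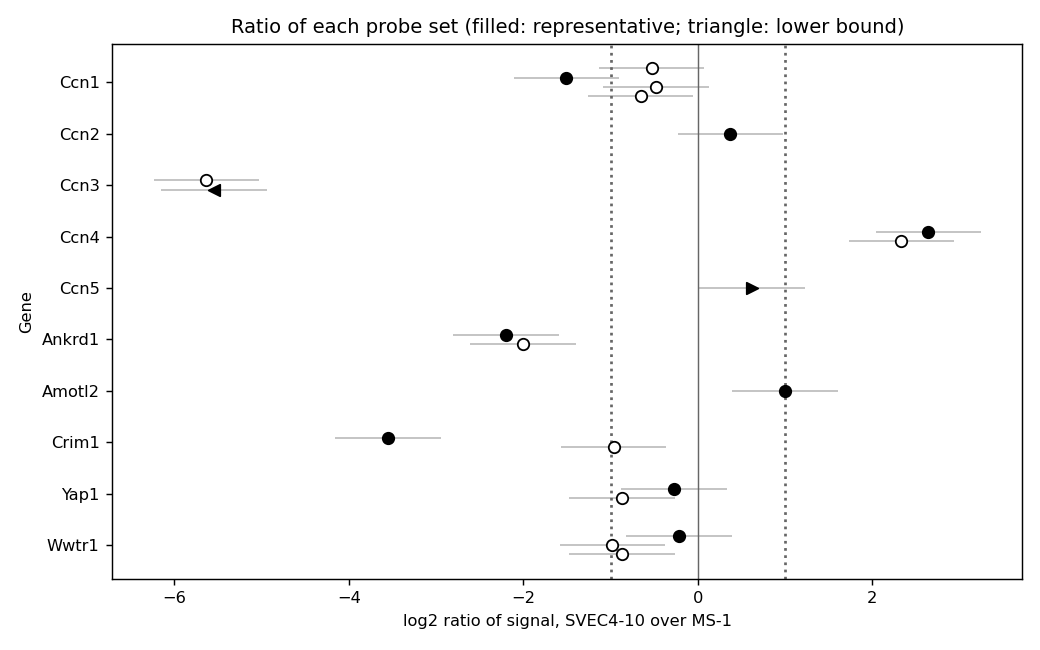
Log2 ratio of signal, SVEC4-10 over MS-1, of each probe set, with filled symbols for the probe set that represents the gene, triangles for lower bounds and grey bars for the error of 0.60 between probe sets of a gene. Dotted lines mark 2-fold. Of the 20 probe sets 15 lie left of 0, towards MS-1, but 4 of these are of Ccn1 and 3 of Wwtr1, so they are not a count of genes. The share over all probe sets was not computed, and the median of all measured genes was 0.02.

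Yap1 and Wwtr1 were clearly expressed in both lines. For Yap1, probe set 1448363_at read 788 in SVEC4-10 cells and 952 in MS-1 cells, and 1416487_a_at read 208 in SVEC4-10 cells and 379 in MS-1 cells. For Wwtr1, the representative probe set 1417818_at read 1268 in SVEC4-10 cells and 1472 in MS-1 cells. Its 2 further probe sets, 1417817_a_at and 1437155_a_at, read 496 and 409 in SVEC4-10 cells and 978 and 747 in MS-1 cells. All 5 probe sets read lower in SVEC4-10 cells and none reached 2-fold as deposited. The log2 ratios of the representatives, -0.27 for Yap1 and -0.22 for Wwtr1, are within the error, whereas those of the other 3 probe sets, from -0.98 to -0.87, exceed it.

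The 3 target genes did not share a direction. Ankrd1, a nuclear and sarcomeric ankyrin repeat protein and a standard YAP target, was lower in SVEC4-10 cells with both probe sets. Probe set 1420991_at read 389 in SVEC4-10 cells and 1783 in MS-1 cells, and 1420992_at read 374 in SVEC4-10 cells and 1498 in MS-1 cells. The resulting log2 ratios of -2.20 and -2.00 agree within the error of 0.41 for bright genes. Ankrd1 stood at rank 461 of 12583 from the MS-1 end.

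Crim1, a transmembrane protein with cysteine-rich repeats that binds bone morphogenetic proteins, was also lower in SVEC4-10 cells, but its probe sets differed widely in size. Probe set 1426951_at read 161 in SVEC4-10 cells and 1890 in MS-1 cells, an 11.7-fold difference. Probe set 1452253_at, annotated to the same accession, read 110 in SVEC4-10 cells and 215 in MS-1 cells, a 1.95-fold difference. The log2 ratios of -3.55 and -0.97 are 2.58 apart, far beyond the error, so the direction was shared and the size was not settled.

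Amotl2, a junctional scaffold that binds YAP and restrains it while itself being a YAP target, read 1282 in SVEC4-10 cells and 640 in MS-1 cells with its only probe set, 1452387_a_at. The 2.00-fold difference (log2 ratio 1.00) exceeds the error of 0.60 but lies at the threshold, and under scaling to the poly-A controls the log2 ratio was 0.46. Of these 3 target genes, Amotl2 thus read higher and Ankrd1 and Crim1 lower in SVEC4-10 cells. Ccn1, which YAP also switches on, read lower there with each of its probe sets, and no direction could be given for Ccn2.

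Because TEAD factors bring YAP and TAZ to DNA, the RefSeq promoters (GRCm38.p6) of the member genes were searched for the TEAD core GGAATG on both strands. A promoter here is the window from 250 bases before to 50 bases after a start listed for the gene, and 6 of the 10 genes matched an entry. Those of 4 genes whose signals differed in opposite directions are shown, for comparison, with the match in capitals. They lie at chr3:145649936-145650235 on the minus strand for Ccn1, chr19:36119795-36120094 on the minus strand for Ankrd1, chr9:102717554-102717853 on the plus strand for Amotl2 and chr17:78199998-78200297 on the plus strand for Crim1, each written 5' to 3' along the gene.
Ccn1: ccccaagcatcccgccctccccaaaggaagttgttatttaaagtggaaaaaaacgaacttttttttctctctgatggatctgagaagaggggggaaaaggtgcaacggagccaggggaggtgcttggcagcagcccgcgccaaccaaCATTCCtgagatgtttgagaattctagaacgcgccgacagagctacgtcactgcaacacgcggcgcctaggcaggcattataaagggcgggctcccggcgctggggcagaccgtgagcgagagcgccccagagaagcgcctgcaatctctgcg
Ankrd1: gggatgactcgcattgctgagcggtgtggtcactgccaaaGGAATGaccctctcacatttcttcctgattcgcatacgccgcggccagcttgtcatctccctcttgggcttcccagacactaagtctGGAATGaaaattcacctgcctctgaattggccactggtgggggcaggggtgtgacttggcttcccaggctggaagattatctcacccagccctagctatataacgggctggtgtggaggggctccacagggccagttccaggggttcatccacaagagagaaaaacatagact
Amotl2: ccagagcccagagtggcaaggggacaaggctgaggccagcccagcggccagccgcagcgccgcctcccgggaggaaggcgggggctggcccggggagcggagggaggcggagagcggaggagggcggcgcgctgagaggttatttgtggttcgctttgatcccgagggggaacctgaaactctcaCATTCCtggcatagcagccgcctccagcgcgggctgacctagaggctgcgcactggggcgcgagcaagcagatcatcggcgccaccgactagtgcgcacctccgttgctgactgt
Crim1: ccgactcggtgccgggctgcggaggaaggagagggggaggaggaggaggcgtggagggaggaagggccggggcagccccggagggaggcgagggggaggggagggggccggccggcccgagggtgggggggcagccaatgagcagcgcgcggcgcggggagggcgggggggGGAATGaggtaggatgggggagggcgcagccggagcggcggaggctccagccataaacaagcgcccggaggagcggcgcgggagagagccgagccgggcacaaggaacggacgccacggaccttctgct

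Ankrd1 held 2 matches, beginning 210 and 123 bases before the start, both on the strand of the gene. Ccn1 and Amotl2 held 1 match each on the opposite strand, 103 and 65 bases before the listed start, and Crim1 held 1 match 79 bases before it. The Amotl2 window lies inside the gene, which begins at chr9:102717091, so its match precedes the listed start but not the beginning of the gene. Yap1 and Wwtr1 held 1 each, 141 and 136 bases before the start, the last in the first of its 2 overlapping windows. All 6 genes therefore held the motif, which is present in 14.7% of 32851 promoter windows of this length and in at least 1 window of 16.6% of 27025 genes. The match was present both in genes that read higher in SVEC4-10 cells (Amotl2) and in genes that read lower (Ankrd1, Crim1). The AP-1 motif TGANTCA, present in 7.81% of the windows, and the CArG box of the serum response factor, present in 1.63%, were not found in these windows. A match is a description of the letters and not evidence of binding.

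**Figure D3:**
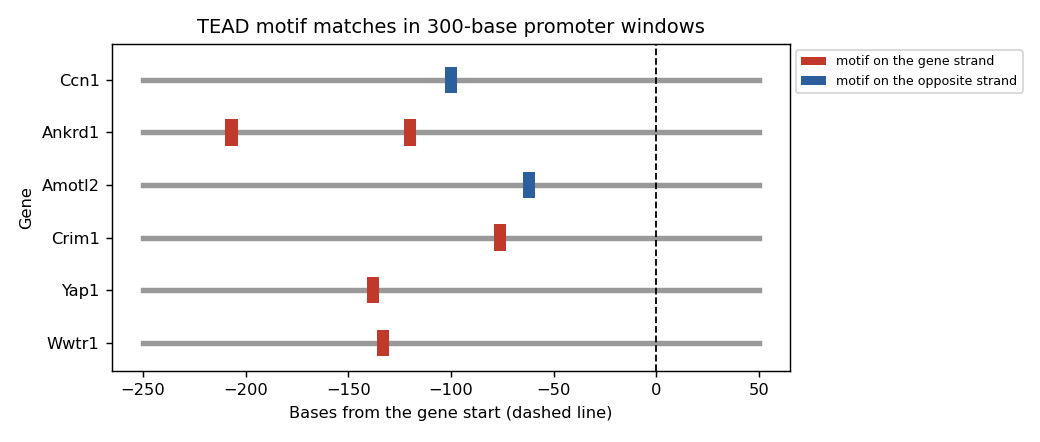
Position of each TEAD motif match (6 bases wide) in the promoter windows of the 6 genes, in bases from the listed start (gene start on the axis), red for the strand of the gene and blue for the opposite strand. Ankrd1 has 2 matches and each other gene 1, all before the listed start, which for Amotl2 lies inside the gene.

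Other genes described as YAP and TAZ targets, mostly in human cells, were compared as a list of 22, of which 21 were measured. Of these, 9 were at least 2-fold higher in SVEC4-10 cells (15.1% of all measured genes were), 4 in MS-1 cells (12.0% of all were) and 8 were within 2-fold, and their median log2 ratio was 0.42 against 0.02 over all genes. Under poly-A scaling the median was -0.12, against -0.52 over all measured genes. Without the 5 genes described above, 8 of 16 were higher in SVEC4-10 cells and 1 in MS-1 cells. Ccdc80, a matrix-associated protein, read 2547 in SVEC4-10 cells and lay under background in MS-1 cells, at least 156-fold higher (log2 ratio 7.29, and 5.32 with its other probe set). Axl, a receptor tyrosine kinase, likewise read 2083 in SVEC4-10 cells and was under background in the other line (at least 128-fold). Igfbp3, which binds insulin-like growth factors, and F3, tissue factor, were at least 51.5-fold and at least 19.2-fold higher in SVEC4-10 cells (log2 ratio 5.69 for Igfbp3, and 4.69 with its other probe set), and Rbms3, an RNA-binding protein, was 4.70-fold higher. The gene of the 16 that was higher in MS-1 cells, named after its values were seen, was Myof, a membrane repair protein, with signals of 706 in SVEC4-10 cells and 2216 in MS-1 cells. Ccn1, Ankrd1 and Crim1 thus lay on the MS-1 side of a list whose other genes lay mostly on the SVEC4-10 side or within 2-fold. Of 21 measured genes, 21 were above background in SVEC4-10 cells and 15 in MS-1 cells. The rest counted as measured through the SVEC4-10 array alone and are all among its 9 higher genes, so the 2 counts overlap. Over all genes, 10151 of 12583 were above background on both arrays.

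The counts for the kinases and adaptors that hold YAP and TAZ in check depended on the scaling. All 15 genes of this list with a probe set were measured. As deposited, 1 was at least 2-fold higher in SVEC4-10 cells (15.1% of all measured genes were), 2 in MS-1 cells (12.0% of all were) and 12 within 2-fold, with a median of -0.11. Under poly-A scaling 0 were higher in SVEC4-10 cells and 6 in MS-1 cells, against 1036 and 3330 of all measured genes. The median of the list was then -0.65, against -0.52 over all measured genes. Lats1, which phosphorylates YAP and TAZ directly, read 612 in SVEC4-10 cells and 259 in MS-1 cells, 2.36-fold higher as deposited. Its relative Lats2 read 243 in SVEC4-10 cells and 261 in MS-1 cells, a difference within the error. Stk4, the upstream kinase MST1, read 554 in SVEC4-10 cells and 281 in MS-1 cells, 1.97-fold higher (log2 ratios of 0.46 to 0.98 over 3 probe sets). Frmd6, an upstream adaptor, read 301 in SVEC4-10 cells and 726 in MS-1 cells, 2.41-fold higher in MS-1 cells. Taok2, a kinase that acts on MST1, gave log2 ratios of -3.48 and -0.58 with its 2 probe sets, and its relative Taok1 gave -0.95 (from -1.29 to -0.34 over 5 probe sets).

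Among the DNA-binding partners, the TEAD factors did not share a direction. Tead1 read 479 in SVEC4-10 cells and 326 in MS-1 cells, a log2 ratio of 0.56. That is within the error of 0.60 over all genes but exceeds the 0.41 for bright genes. The other probe set of Tead1 gave -0.44, so its sign was not settled. Tead2 read 262 and Tead3 read 109 in SVEC4-10 cells, against 118 and 46.6 in MS-1 cells, which are log2 ratios of 1.15 and 1.23. Tead4 read 27.6 in SVEC4-10 cells and 207 in MS-1 cells, 7.48-fold higher in MS-1 cells. Under poly-A scaling, Tead2 and Tead3 no longer reached 2-fold. This scaling lowers every log2 ratio, so it could only enlarge the difference of Tead4 and is no check of it. Tead2, Tead3 and Tead4 each rest on 1 probe set, and the SVEC4-10 signal of Tead4 is not far above the background of 17.6. Vgll3, a TEAD cofactor that competes with YAP for binding, read 1132 in SVEC4-10 cells and lay under background in MS-1 cells, at least 69.5-fold higher (its 3 probe sets gave log2 ratios of 4.01 to 6.12), and Vgll1 and Vgll2 were below background in both lines. Over the list, 3 of 6 measured genes were higher in SVEC4-10 cells (15.1% of all measured genes were). In MS-1 cells 1 was higher (12.0% of all were), and 2 lay within 2-fold. The median was 0.85, or 0.31 under poly-A scaling, where that of all measured genes was -0.52.

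Among 17 measured junction, polarity and YAP-binding proteins, 2 were as deposited at least 2-fold higher in SVEC4-10 cells (Amotl2 among them; 15.1% of all measured genes were), 1 in MS-1 cells (12.0% of all were) and 14 within 2-fold, with a median of -0.20. Under poly-A scaling 1 was higher in SVEC4-10 cells (8.23% of all measured genes were) and 7 in MS-1 cells (26.5% of all were). The median was then -0.74, against -0.52 over all measured genes. Patj, a polarity scaffold, was at least 3.49-fold higher in SVEC4-10 cells (signal 56.8) and Fat4, a large cadherin, at least 2.96-fold higher in MS-1 cells (signal 52.1). Ptpn14, a phosphatase that binds YAP, Pard3, a polarity protein, and Ywhaz, a 14-3-3 protein that can hold phosphorylated YAP in the cytoplasm, had log2 ratios of -0.98, -0.91 and -0.89. The 4 probe sets of Pard3 ran from -1.61 to -0.71, and the 7 of Ywhaz from -0.89 to 0.15, so the sign of Ywhaz was not settled.

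Receptors reported for CCN proteins, chiefly integrins, differed in both directions. Of 14 measured genes, 7 were at least 2-fold higher in SVEC4-10 cells (15.1% of all measured genes were). In MS-1 cells 4 were higher (12.0% of all were), and 3 lay within 2-fold. Under poly-A scaling the counts were 5 and 5, against 8.23% and 26.5% of all measured genes. With the probe set of smallest ratio they were 4 and 3, against 11.1% and 8.59%. Each line had 12 of the 14 above background, so some genes were measured through 1 array alone. The median of 0.57 ranged from -0.19 to 0.74 over the alternative processings. Itgb5, an integrin chain that pairs with the alpha-v chain, read 829 in SVEC4-10 cells and 30.5 in MS-1 cells, 27.2-fold higher (its 4 probe sets gave log2 ratios of 3.54 to 4.89). Itgb3, the other main partner of alpha-v in endothelium, was below background in SVEC4-10 cells and read 336 in MS-1 cells, at least 19.1-fold higher there (log2 ratio -4.26, and -1.98 with its other probe set). Itga6, through which CCN1 binds several cell types, read 232 in SVEC4-10 cells and 1445 in MS-1 cells. Notch1, which binds CCN3, read 21.6 in SVEC4-10 cells, a little above background, and 571 in MS-1 cells. The difference was 26.4-fold (log2 ratio -4.72, and -3.45 with its other probe set). Sdc4, a heparan sulfate proteoglycan, was 10.9-fold higher in SVEC4-10 cells by 1 probe set and gave a log2 ratio of -0.25 with the other.

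Ccn1, Ccn2 and Ankrd1 are also reached by the serum response factor SRF and its MRTF co-activators, which respond to actin and serum. Of 16 measured genes of that list, 7 were at least 2-fold higher in SVEC4-10 cells (15.1% of all measured genes were), 0 in MS-1 cells (12.0% of all were) and 9 within 2-fold, with a median of 0.87. When scaled to the poly-A controls the counts were 6 and 1, against 8.23% and 26.5% of all measured genes. The median was then 0.33, against -0.52 over all measured genes. Tagln and Acta2, contractile genes that are also mesenchymal markers, were at least 233-fold and 133-fold higher in SVEC4-10 cells, and Tpm2, a tropomyosin, was 90.3-fold higher (its 4 probe sets gave log2 ratios of 2.45 to 6.50). Egr1 and Fos, which serum induces within minutes as it does Ccn1, read 1162 and 264 in SVEC4-10 cells and 146 and 67.1 in MS-1 cells. Srf itself gave log2 ratios of 0.66 and -0.33 with its 2 probe sets. Ccn1 and Ankrd1 read lower in SVEC4-10 cells, and no direction could be given for Ccn2. Any part of SRF in these differences was not tested.

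**Figure D4:**
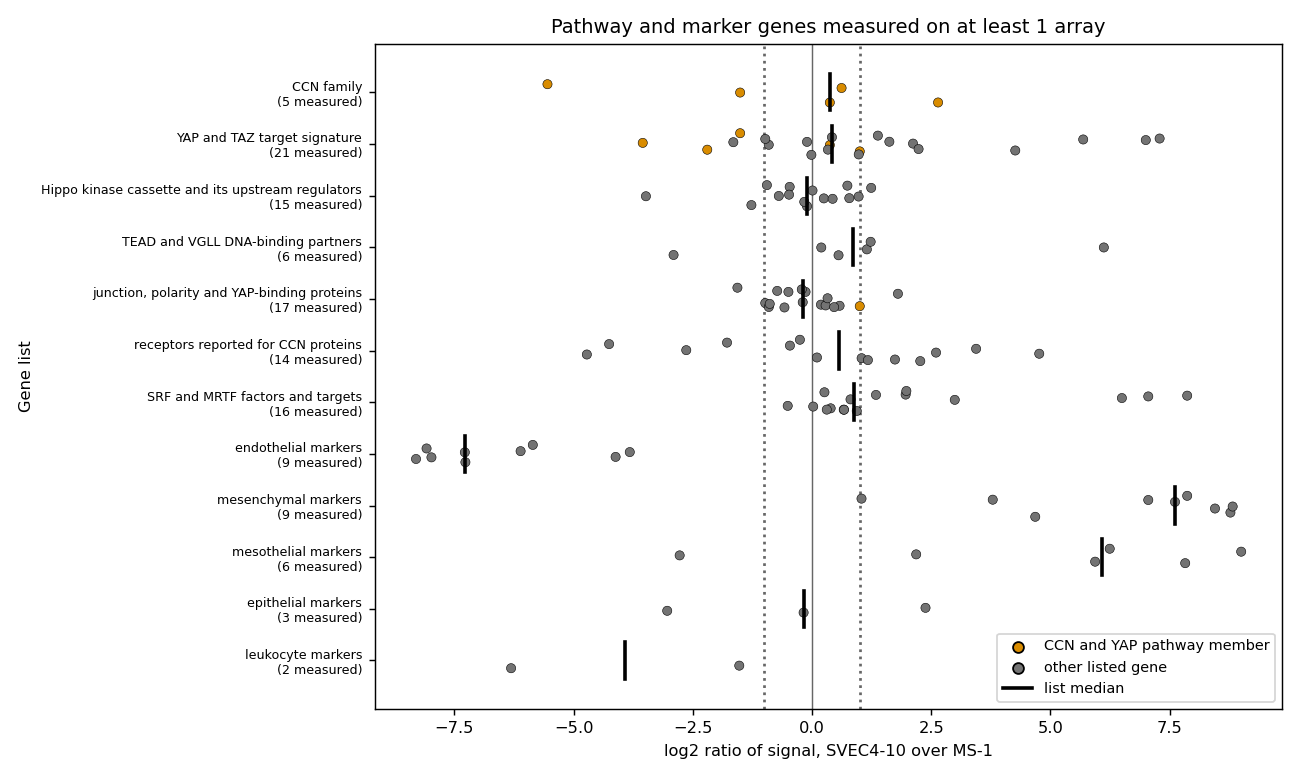
Log2 ratio of signal, SVEC4-10 over MS-1, of each measured gene of the pathway and marker lists (points), with the median of each list (black bar), 2-fold limits (dotted) and the CCN and YAP pathway members in orange. The kinase and junction lists gather around 0 as deposited (medians -0.11 and -0.20). Under poly-A scaling their medians were -0.65 and -0.74, against -0.52 over all measured genes. The target and SRF lists extend to the right, and the endothelial and mesenchymal markers lie at opposite ends (medians -7.27 and 7.61).

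Across 10 alternative processings, Ccn3 and Ankrd1 stayed at least 2-fold higher in MS-1 cells and Ccn4 in SVEC4-10 cells in all 10. Their log2 ratios ranged from -6.09 to -4.55, from -2.74 to -2.00 and from 2.10 to 2.69. Crim1 passed 2-fold in 9 of them, Amotl2 in 8 and Ccn1 in 6, and Ccn5 did in 2 of the 9 in which it was measured. Yap1, Wwtr1 and Ccn2 did not reach 2-fold in any of the 10. For Yap1 and Wwtr1 this rests on the representative probe sets, which had the smallest ratios and on which poly-A scaling was read. Their other probe sets, from -0.98 to -0.87 as deposited, would pass 2-fold towards MS-1 if lowered by the poly-A shift of 0.54.

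**Figure D5:**
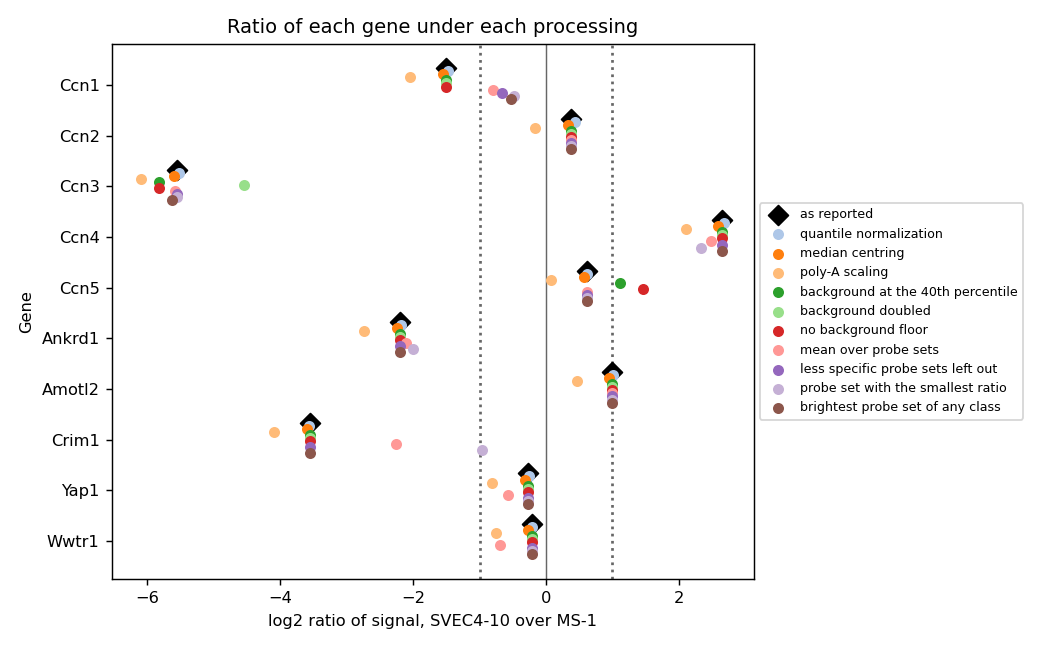
Log2 ratio of signal, SVEC4-10 over MS-1, of each gene as reported (black diamonds) and under each alternative processing (coloured circles), with 2-fold limits dotted. Ccn3, Ccn4 and Ankrd1 stay outside the limits throughout, Ccn1 and Crim1 spread across the lower limit, and the points for poly-A scaling lie to the left of the reported values.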

How the data were processed

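RNA of 1 culture per line was measured on 1 Affymetrix array each, from 6 µg of total RNA labelled with biotin, per the labels' protocols. The authors deposited a linear intensity for each probe set, and how it was summarised from the probes is not stated (not given in the sources used here). A 2%-trimmed mean of 150.001 was found on either array, a sign of prior scaling to 1 target, and this assumes equal total signal in the 2 lines. Values were used as deposited.

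Of 45101 probe sets, 34945 had 1 gene in the platform annotation (34741 found by identifier in RefSeq's GRCm38.p6 gene table, used for names), 932 had several and were left out, 9160 were unnamed here and 64 were controls. No probe set of several genes included a member. Of 134 listed genes, 129 had a probe set, and the others were not analysed here. A further gene list of the design is not reported here.

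Genes above background in 1 line or both counted as measured. With 1 array per line no test was possible, and genes were counted by size, at 2-fold or more. The text names all members, up to 5 further measured genes of each list with the largest absolute log2 ratio, and whole families. The number of arrays limits the precision. The members and lists were chosen with earlier results of these data known. The steps were tested on simulated data. The alternatives were 3 scalings, 3 treatments of background, 4 probe set rules (1 of them, the brightest probe set of any class, chosen after seeing the data) and thresholds of 4-fold and 8-fold. Python 3.11.15, numpy 2.4.6, pandas 2.3.3 and matplotlib 3.10.9 were used.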

Additional observations from a re-analysis of the deposited data

How the results depend on the processing

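No member gene that was at least 2-fold apart changed direction in the 10 alternative processings run. Of 99 member ratios recomputed, 91 moved by less than the error of 0.60, and of 240 list counts 216 stayed within 1.5 times. Much of this agreement was set in advance. The poly-A shift of 0.54 is itself smaller than the error. Background rules leave bright genes unchanged, and probe set rules cannot move a gene with 1 probe set. The count of 91 is therefore not a measure of robustness. Of the 10 genes, 1 rather than 2 was at least 2-fold higher in SVEC4-10 cells with median centring, with poly-A scaling and at 4-fold, Amotl2 being the gene lost, and 0 were at 8-fold. The count in MS-1 cells was 2 rather than 4 with the probe set of smallest ratio and at 8-fold. Over all measured genes, poly-A scaling gave 1036 genes higher in SVEC4-10 cells and 3330 in MS-1 cells (23.7% of them in SVEC4-10 cells, against 55.8% as deposited), the 4-fold threshold 705 and 528, and the 8-fold threshold 342 and 279. Poly-A scaling lowers all ratios together by construction; the cause of the difference in the controls was not tested. Ccn5 and the SVEC4-10 signals of Ccn3 lie near background, which limits their folds. No paired analysis was possible because the lines share only 1 replicate number and no test was run.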
